A study of Mus musculus with 6 samples.

Results

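Solute carriers are the membrane proteins that move sugars, amino acids, ions, metals, nucleotides and vitamins across the plasma membrane and the membranes of organelles. The set described here holds every probe whose single gene symbol begins with Slc, a family number and a letter, apart from the zinc transporter families Slc30a and Slc39a. By this rule 206 of the 21888 probes in the deposited table were members, from 133 genes, and 202 of them, from 131 genes, had a value on at least 4 of the 6 arrays and were tested. The remaining 4 probes, of Slc1a1, Slc25a1, Slc25a30 and Slc35b4, had 2 or 3 values and are not described further. Of the tested probes, 174 had a value on 6 arrays, 18 on 5 and 10 on 4.

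Embryonic day 12.5 pancreas of homozygous Sox4-/- knockout mice was set against that of their wild-type littermates, with no other allele or agent in the labels. Sox4, of the SoxC group, is a DNA-binding regulator of transcription. Each of the 6 spotted arrays carried both RNAs, the wild type in channel 1 and the knockout in channel 2 according to the labels. By the label of arrays 1 and 2, which those of arrays 3 to 6 do not repeat, pancreases were combined into 2 groups before extraction and the RNA was amplified linearly. The labels tie no array to separate embryos, so p-values reflect only how far the arrays scatter, and that scatter may be technical. Values are log2 ratios with the median of each array set to 0, and n is the number of arrays. They are read as knockout over wild type, so that a value under 0 is likely lower in the knockout. That direction rests on the channel order and the titles alone, because the labels name no dye. Each RNA stayed in 1 channel throughout, so a probe's channel bias and a change in RNA cannot be told apart. Ratios give no level, and the tissue could therefore not be checked against the abundance of its markers. In whole tissue, fewer cells of a type and less RNA per cell cannot be told apart.

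In the pancreatic bud, sugar carriers such as Slc2a2 (GLUT2) bring glucose into the epithelium, and in the adult islet the same protein serves glucose uptake by beta cells. Amino acid carriers feed protein synthesis, which becomes intense as acinar cells start to make enzymes. The Slc25 family works in the inner mitochondrial membrane and the Slc35 family mostly in the Golgi, where it supplies nucleotide sugars for glycosylation. Some symbols of the set do not stand for carriers: Slc9a3r2 is a scaffold protein, Slc4a1ap is an adaptor that was named for the anion exchanger, and symbols ending in os are transcripts named for a neighbouring gene.

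Windows before transcription start sites are printed because they belong to the genes the following results return to: Slc24a2, whose probe was furthest under 0, and Slc38a4 and Slc2a2, whose different probes gave like values. Each window is the 250 bases before an annotated start in the RefSeq table of build GRCm38.p6, 5′ to 3′ on the strand of the gene. They lie at chr4:87227964-87228213 (minus strand, the start of Slc24a2 that held a searched motif, of its 2 starts), chr15:97055957-97056206 (minus strand, the outermost of 3 starts of Slc38a4) and chr3:28697653-28697902 (plus strand, Slc2a2). Capitals mark a match to a searched motif.
Slc24a2: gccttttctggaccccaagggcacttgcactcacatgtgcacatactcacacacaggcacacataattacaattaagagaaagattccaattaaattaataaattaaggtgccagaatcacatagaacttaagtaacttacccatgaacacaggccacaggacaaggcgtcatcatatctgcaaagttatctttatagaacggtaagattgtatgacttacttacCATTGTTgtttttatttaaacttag
Slc38a4: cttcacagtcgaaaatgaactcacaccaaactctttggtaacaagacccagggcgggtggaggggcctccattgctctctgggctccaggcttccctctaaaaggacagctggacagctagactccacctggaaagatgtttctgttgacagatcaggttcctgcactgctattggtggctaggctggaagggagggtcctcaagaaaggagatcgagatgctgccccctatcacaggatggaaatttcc
Slc2a2: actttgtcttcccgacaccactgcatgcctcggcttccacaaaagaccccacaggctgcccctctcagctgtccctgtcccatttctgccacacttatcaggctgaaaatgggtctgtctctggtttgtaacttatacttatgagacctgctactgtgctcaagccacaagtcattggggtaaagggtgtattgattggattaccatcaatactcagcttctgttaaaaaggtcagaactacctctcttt
Motifs were searched on both strands, namely AACAAAG and AACAATG, which Sox proteins bind, the forkhead motif TGTTTAC and the Hnf4 motif CAAAGTCCA. A match to AACAATG, on the other strand, lies 25 to 19 bases before the Slc24a2 start. The letters of these motifs were not in the other windows printed. Windows were found for 110 of the member genes, 144 windows in all. Of these, 4 held AACAAAG (2.78%, against 5.03% of all 32851 windows) and 3 held AACAATG (2.08%, against 3.29%), while TGTTTAC and CAAAGTCCA were in 0 member windows and in 3.17% and 0.384% of all. A match describes the letters and is not a site.

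Counts among the carriers lay near those over the whole array. The median of the member means was 0.02, beside 0.03 over all 21247 tested probes, and 107 members had a mean above 0 and 95 a mean under 0. Past an adjusted p of 0.05 (limma, Benjamini-Hochberg over all tested probes) were 12 member probes of 11 genes, 5 probes above 0 and 7 under 0. That is 5.94% of the members, beside 5.49% of all tested probes. Above 0 the shares were 2.48% and 1.96%, and under 0 they were 3.47% and 3.53%. At an unadjusted limma p under 0.05 there were 52 members, 25.7%, beside 27.6% of all probes. Members with the same sign on every measured array numbered 47, 23.3% beside 22.4% of all probes: 27 under 0 (13.4% beside 12.3%) and 20 above 0 (9.9% beside 10.2%). The spread between arrays was also alike, with a median SD of 0.32 for members and 0.29 for all probes. The calls just inside the threshold were Slc66a2 and Slc25a36, at adjusted p of 0.046 and 0.047 (limma), and those just outside were Slc10a6 and a second Slc16a9 probe, at 0.0514 and 0.0592.

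**Figure D1:**
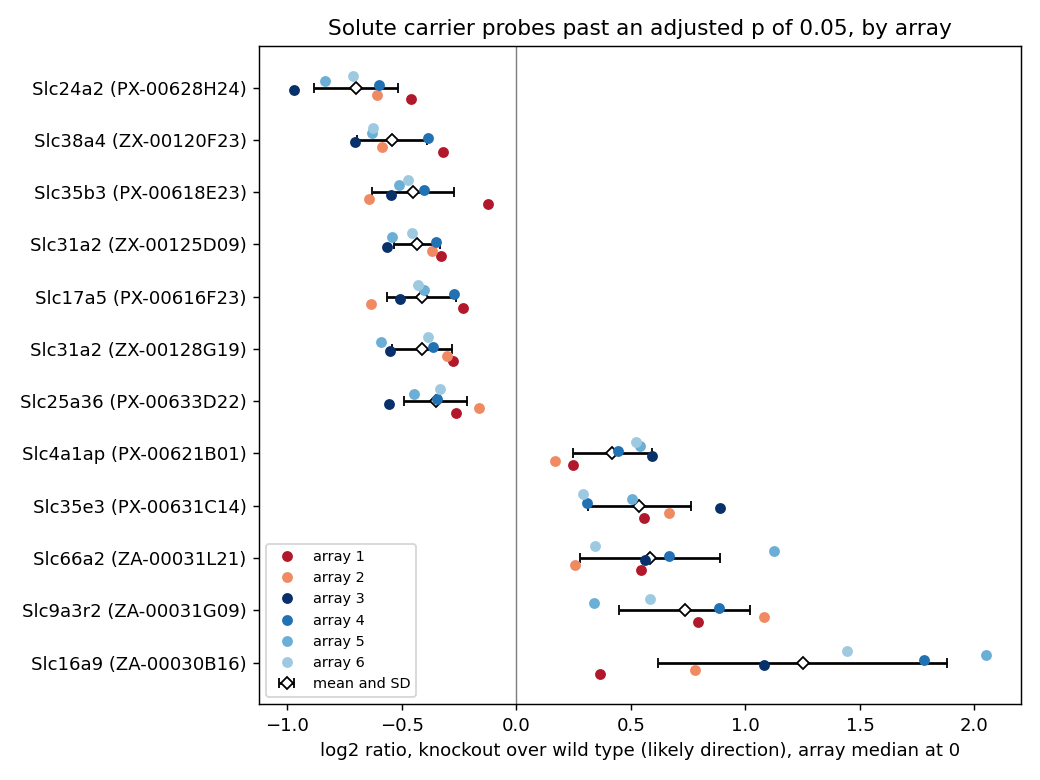
The 12 solute carrier probes past an adjusted p of 0.05, with the log2 ratio on each array on the horizontal axis (red tones arrays 1 and 2, blue tones arrays 3 to 6) and the mean with its SD as a diamond with a bar. Every array lies on the side of the mean for each probe, from Slc24a2 at -0.70 to Slc16a9 at 1.25.

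The calls depended on having all 6 arrays. Without array 1, 3, 4, 5 or 6 no member passed (limma). In these fits 48, 44, 46, 51 and 42 members had an unadjusted limma p under 0.05. These were 23.8%, 21.8%, 22.8%, 25.2% and 20.8% of the members, beside 24.1%, 23.6%, 22.8%, 22.4% and 22.1% of all probes. Without array 2, which had the widest spread, 7 members passed. The same happened over the whole table, where the share of probes past the threshold was 0.0753%, 0.151%, 0.0471%, 0.0377% and 0.0612% without array 1, 3, 4, 5 or 6 and 4% without array 2. All 12 probes had the same sign on every measured array, so leaving out an array could not change it. Their largest unadjusted p in any of these fits was 0.00953 (limma). They were chosen by a small p on these same arrays, so this value is no separate support. Arrays 1 and 2 resembled each other (Spearman's rho across member probes 0.59) and arrays 3 to 6 each other (0.39 to 0.51), against 0.03 to 0.39 between these sets. Probes are not independent replicates, and these values carry no test. With the array set as a term in the fit, 8 members passed, 3.96% beside 3.27% of all probes, and 7 of them were among the 12.

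Among carriers of glucose and other sugars, none of 10 probes of 8 genes passed, and the group median was -0.05. Slc2a2, the low-affinity glucose transporter of beta cells, liver and the early pancreatic epithelium, had the lowest probe means of the group. Its probe MMC01H02 ran from -1.16 on array 1 to -0.11 on array 2, with a median of -0.46, a mean of -0.52 ± 0.35 (SD, n = 6) and an adjusted p of 0.0686 (limma). Its probe ZA-00032I05 ran from -0.69 on array 2 to 0.001 on array 3, with a median of -0.36, a mean of -0.35 ± 0.23 (SD, n = 6) and a limma adjusted p of 0.0817. Of these 12 values, 11 were under 0, and the arrays that were lowest differed between the probes. Averaged over both probes, the gene stood at -0.43 ± 0.17 (SD, n = 6), past the threshold at an adjusted p of 0.0368 in the limma fit with 1 value per gene. With array weights each probe passed on its own, at -0.56 and -0.32. Under that setting 13% of all tested probes passed, beside 5.49% as reported. With the array set as a term neither probe passed, at limma adjusted p of 0.0823 (MMC01H02) and 0.0737 (ZA-00032I05). Slc37a4, which carries glucose 6-phosphate into the endoplasmic reticulum, was at -0.25 ± 0.24 and did not pass. The ubiquitous Slc2a1 and the neuronal Slc2a3 had no named probe in the table used here.

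Of 27 amino acid and peptide probes from 22 genes, 1 passed, under 0, and the group median was -0.07. It belonged to Slc38a4, a sodium-coupled carrier of neutral amino acids that is abundant in liver and placenta. The probe ZX-00120F23 ran from -0.70 to -0.32 with a median of -0.61, and its mean was -0.54 ± 0.15 (SD, n = 6), a 1.46-fold lower ratio at a limma adjusted p of 0.0287. The other Slc38a4 probe, ZA-00028I11, ran from -1.02 to -0.12 with a median of -0.50, and its mean of -0.51 ± 0.32 had an adjusted p of 0.0607 (limma). All 12 values of the gene were under 0, and the gene mean of -0.53 ± 0.21 passed at a limma adjusted p of 0.0331. Slc38a2, the related carrier that amino acid shortage induces, gave probes on either side of 0, at 0.16 ± 0.91 and -0.15 ± 0.31, neither past the threshold. The largest mean of all members belonged to Slc6a11, a GABA transporter, at 1.63 ± 1.84 (SD, n = 4). Its values were 0.01, 3.18, 0.07 and 3.26 on arrays 1, 3, 4 and 5, so a pair of arrays made the mean, and it did not pass (limma adjusted p 0.224).

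Slc38a4 and Slc2a2 are also expressed in fetal liver, and most probes of a list of liver markers had means under 0, 13 against 3 above 0. Of the 16 tested probes from 10 liver genes, 9 probes of 6 genes passed under 0 and none above 0. The median of this list lay between -0.87 and -0.48 on the 6 arrays, and 3 of the 4 probes of Afp were at -2.06 to -1.90, while the other was at 0.01 and Alb was at -0.29 without passing. In the acinar list 21 of 28 probes had means under 0 and 7 above 0. Past the threshold were 11 probes, all under 0, from 3 of its 7 genes, Clps, Cpa1 and Spink1. Ptf1a, a transcription factor of pancreatic progenitors and acinar cells, was at 0.20 without passing, and the 10 probes of Ctrb1 ranged from -0.34 to 0.70 without passing. The list had a median between -0.40 and -0.15 by array. Endocrine genes had 2 probes of Ins2 past it above 0 and 1 of Neurog3 under 0, of 16 probes from 7 genes. The part of these cell types in the Slc2a2 and Slc38a4 values was not tested.

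**Figure D2:**
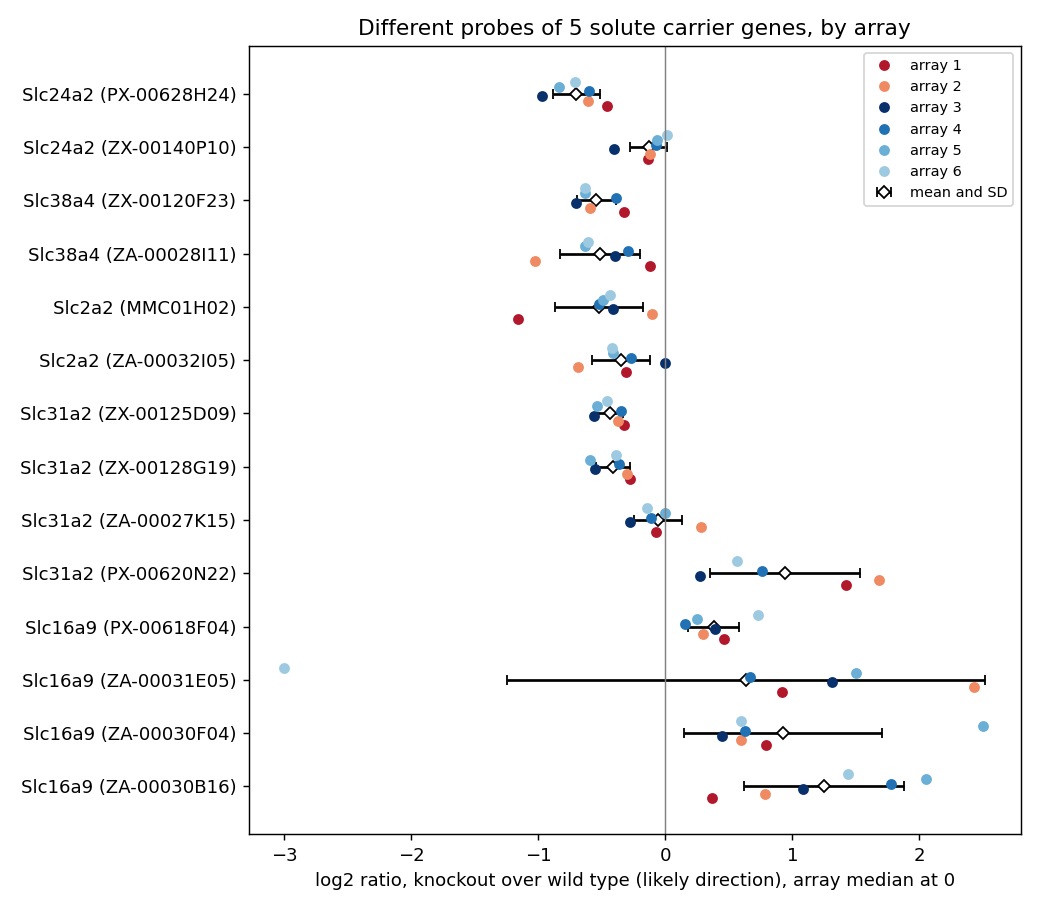
Log2 ratios by array for all tested probes of Slc24a2, Slc38a4, Slc2a2, Slc31a2 and Slc16a9 (points, coloured by array) with each probe's mean and SD (diamond and bar). Both Slc38a4 probes and both Slc2a2 probes have means from -0.54 to -0.35, whereas the Slc31a2 probes spread from -0.43 to 0.94.

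Metal and heme carriers had 2 of 13 probes past the threshold, both of Slc31a2 and both under 0, and the group median was -0.04. Slc31a2 is the copper transporter homologue CTR2 of endosomes and lysosomes. Probe ZX-00125D09 ran from -0.56 to -0.33 (median -0.41) and had a mean of -0.43 ± 0.10 (SD, n = 6, limma adjusted p 0.0302). Probe ZX-00128G19 ran from -0.59 to -0.28 (median -0.37) and had a mean of -0.41 ± 0.13 (SD, n = 6, limma adjusted p 0.036). On both probes arrays 3 and 5 were lowest. Another Slc31a2 probe was at -0.06 ± 0.19, and the remaining one, PX-00620N22, was at 0.94 ± 0.59 (SD, n = 5, limma adjusted p 0.0701) with all of its arrays above 0, so the probes of this gene disagreed. With the array set as a term PX-00620N22 passed too, above 0. Of its 5 values, 4 were quotients of small whole numbers, a kind of value described further below. The probes ZX-00125D09 and ZX-00128G19 had 0 such values. Over all tested probes, those with mostly such values had a median mean of 0.33, beside 0.01 for the others. The part of this in the PX-00620N22 mean was not tested. Slc31a1, the main copper importer at the cell surface, was at -0.15 ± 0.27. Slc40a1, the iron exporter ferroportin, was at -0.04 ± 0.23. The thymic carrier Slc46a2 had a probe at 1.38 ± 1.32, with values from -0.20 to 3.09, and another at 0.24 ± 0.54, and neither passed. Other genes of iron handling, listed beside the carriers, had 2 of 11 probes past the threshold. Both were of Cp, the copper-dependent ferroxidase ceruloplasmin, at 0.57 ± 0.20 and 0.56 ± 0.23. All 7 probes of Ftl1, the ferritin light chain, had means above 0, from 0.16 to 1.67, without passing. The highest, ZA-00025C01, was at 1.67 ± 0.80 (SD, n = 4), and 100% of its values were quotients of small whole numbers. The next highest Ftl1 mean was 0.46, at ZX-00140N01.

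Inorganic ion carriers had 1 probe past the threshold on each side among 19, with a group median of 0.03. Slc24a2, a potassium-dependent sodium-calcium exchanger known from neurons and cone photoreceptors, was at -0.70 ± 0.18 (SD, n = 6) at PX-00628H24, the lowest mean of any member and a 1.62-fold lower ratio (limma adjusted p 0.0219). The arrays ran from -0.97 to -0.46 with a median of -0.66, all under 0. The other Slc24a2 probe, ZX-00140P10, was at -0.13 ± 0.14 with an adjusted p of 0.298 in limma, so its 6 arrays, from -0.40 to 0.01, did not reach the first probe's values. The probe above 0 was that of the adaptor Slc4a1ap, placed in this group by its symbol, at 0.42 ± 0.17 (SD, n = 6, limma adjusted p 0.0425) with values from 0.17 to 0.59. Slc4a1 itself, the band 3 anion exchanger of red cells, was at 0.01 ± 0.09, one of the tightest probes of the set. Markers of erythroid cells had a list median of 0.004 over 56 probes, with 1 probe past the threshold.

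The mitochondrial carriers were the largest group, with 60 probes of 30 genes, and 1 probe passed. Slc25a36, which carries pyrimidine nucleotides into mitochondria, was at -0.35 ± 0.14 (SD, n = 6, limma adjusted p 0.047), with values from -0.56 to -0.16 and a median of -0.34. The group median was -0.02, and 28 probes had means above 0 against 32 under 0. The 5 probes of Slc25a5, the ADP/ATP carrier of proliferating cells, ranged from -0.18 to 0.26 and none passed. Mitoferrin 1, Slc25a37, which supplies iron for heme in erythroid mitochondria, had probes at 0.03 ± 0.39, 0.26 ± 0.63 and 1.04 ± 1.32. The last of these had 3.39 on array 5 and 0.22 to 0.75 on the others. Slc25a39, with 8 probes, ranged from -0.25 to 0.93 and none passed. Slc25a16 was at -0.52 ± 0.36 with all of its 6 arrays under 0, at an adjusted p of 0.0731 (limma). It passed after scaling the arrays to a common spread, at -0.48. After that scaling 8.42% of all tested probes passed, beside 5.49% as reported.

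In the nucleotide sugar group, 1 of 19 probes passed on each side and the median was 0.09. Slc35b3 brings the sulfate donor PAPS into the Golgi, and its probe PX-00618E23 was at -0.45 ± 0.18 (SD, n = 6, limma adjusted p 0.039), between -0.64 and -0.12 with a median of -0.49. Its other probe was at -0.29 ± 0.40, with array 2 at 0.35 and the others under 0, and did not pass. Slc35e3, a family member whose substrate is not settled, was at 0.54 ± 0.23 (SD, n = 6, limma adjusted p 0.0368), with values from 0.29 to 0.89 and all arrays above 0. Slc35d2, a carrier of UDP-N-acetylglucosamine, had the second lowest mean of the set, at -0.58 ± 0.60, but array 6 was at -1.73 against a median of -0.37 and it did not pass. Slc35f6 reached 1.06 ± 2.23 through array 6, at 5.50, while the others lay between -0.71 and 0.72.

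Of 4 probes of the vesicular family Slc17, the one for Slc17a5 passed. Slc17a5 (sialin) exports sialic acid from lysosomes, and it was at -0.41 ± 0.15 (SD, n = 6, limma adjusted p 0.0386), from -0.63 to -0.23 with all arrays under 0. Slc17a6, the vesicular glutamate transporter 2 of neurons, was at 1.10 ± 1.05 with values from -0.29 to 2.36 and did not pass (limma adjusted p 0.119). In the list of neuron and neural crest markers, 2 of 13 probes passed above 0 (Tubb3 and Elavl4) and 2 under 0, both of Ncam1.

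The mono- and dicarboxylate group had the highest median of the substrate groups, 0.46 over 8 probes of 4 genes, and 7 of its means were above 0. Of its probes 4 belong to Slc16a9, a carrier of the monocarboxylate family linked to carnitine efflux. The probe ZA-00030B16 was at 1.25 ± 0.63 (SD, n = 6), a 2.38-fold higher ratio at a limma adjusted p of 0.037. Its values were 0.36 and 0.78 on arrays 1 and 2 and 1.08, 1.78, 2.05 and 1.44 on arrays 3 to 6, so the set means of 0.57 and 1.59 differed in size but not in side. The other Slc16a9 probes were at 0.38 ± 0.20, 0.93 ± 0.78 and 0.64 ± 1.88, and 23 of the gene's 24 values were above 0, the exception being array 6 of the last probe. Quotients of small whole numbers made up 66.7% of the values at ZA-00030B16 and ZA-00030F04, 50% at ZA-00031E05 and 33.3% at PX-00618F04. Over all tested probes, those with mostly such values had a median mean of 0.33, beside 0.01 for the others. The part of this in the Slc16a9 means was not tested. The tightest Slc16a9 probe, PX-00618F04, ran from 0.15 to 0.73 at an adjusted p of 0.0592 in limma. It passed when only probes with 6 values were tested, at the same mean of 0.38. Under that filter 9.23% of all tested probes passed, beside 5.49% as reported. Both Slc13a1 probes, for a sulfate carrier of kidney and gut, had means above 0, at 0.41 ± 0.50 and 0.50 ± 0.44, without passing. The chaperone Bsg, which brings monocarboxylate carriers to the cell surface, had a probe past the threshold at 0.96 ± 0.58 and another at -0.01 ± 0.37. At the Bsg probe past the threshold 66.7% of the values were quotients of small whole numbers.

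None of 12 probes for carriers of organic ions, bile acids and drugs passed, and none of 13 for carriers of vitamins, nucleosides, choline and lipids, with medians of 0.15 and 0.18. Slc10a6, which takes up sulfated steroids, was the probe nearest to passing, at 0.96 ± 0.50 (SD, n = 5) with all arrays above 0. Of its 5 values, 3 were quotients of small whole numbers. Past the threshold among symbols outside the substrate groups were Slc66a2, at 0.58 ± 0.31 (SD, n = 6, limma adjusted p 0.046), and the scaffold Slc9a3r2, at 0.74 ± 0.29 (SD, n = 5, limma adjusted p 0.039). The other probes of each disagreed. Those of Slc66a2 were at -0.12, -0.07 and -0.02, and those of Slc9a3r2 at 0.10, -0.05 and -0.20. Slc66a2 values ran from 0.26 to 1.12 and Slc9a3r2 values from 0.34 to 1.08, all above 0.

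**Figure D3:**
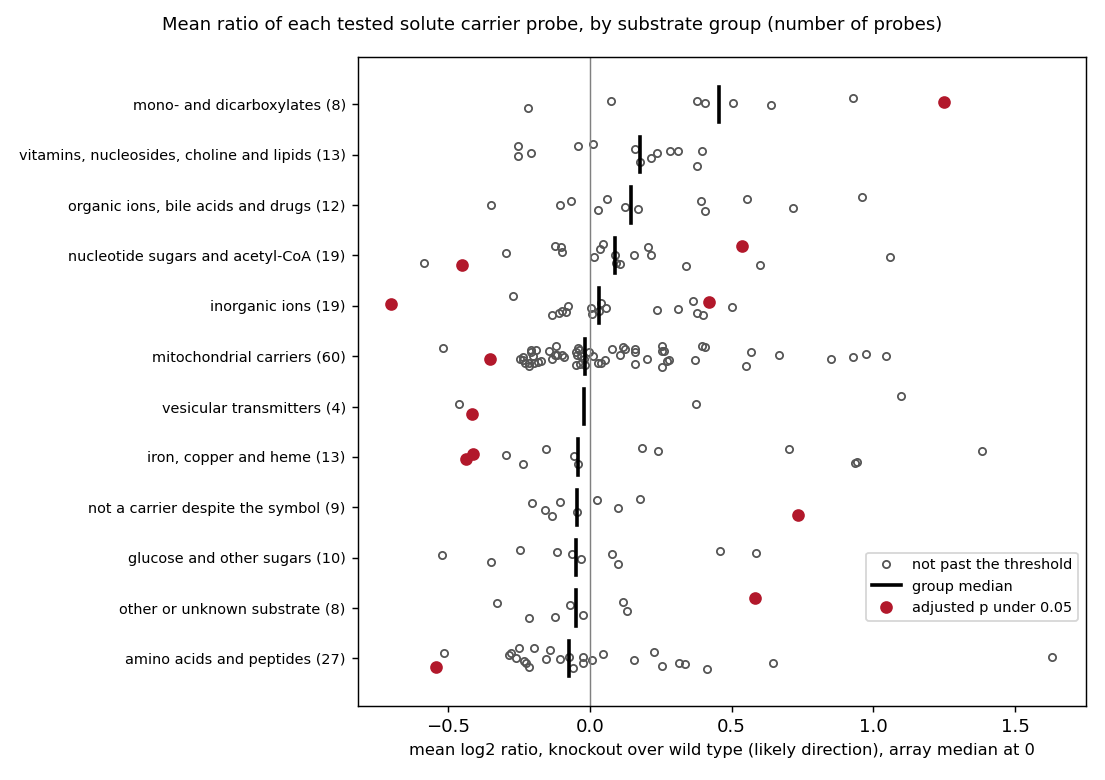
Mean log2 ratio of each of the 202 tested solute carrier probes (circles) by substrate group, with the number of probes in brackets, the group median as a black line and probes past an adjusted p of 0.05 in red. Medians lie between -0.07 and 0.18 in each group but the mono- and dicarboxylates, at 0.46, where 4 of 8 probes are of Slc16a9.

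Different probes of a gene often fell on both sides of 0. Of 40 carrier genes with several tested probes, 8 had all means under 0 and 10 all means above 0, 45% on one side, beside 46.6% of 3965 such genes on the array. The range between the probes of a gene had a median of 0.40 for carriers and 0.33 for all genes. In the limma fit with 1 value per gene, 9 of the 131 carrier genes passed, 6.87% beside 5.82% of all genes. Under 0 were Slc38a4, Slc2a2, Slc24a2, Slc17a5 and Slc25a36, and above 0 were Slc4a1ap, Slc13a1, Slc35e3 and Slc10a6. Slc31a2, Slc16a9, Slc35b3, Slc66a2 and Slc9a3r2 did not pass in that fit. Of the 9 genes, 5 (Slc17a5, Slc25a36, Slc4a1ap, Slc35e3 and Slc10a6) had 1 probe, so that probe alone gave the value. Slc24a2 passed on the average of probes at -0.70 and -0.13.

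Some ratios have the form of a quotient of whole numbers up to 20, as ratios of small whole-number intensities would. At 33 member probes, 16.3% beside 12% of all probes, more than 50% of the values were of this kind. These 33 had a median mean of 0.40 and a median SD of 0.78, with 28 means above 0. Among them were the probes of Slc6a11 (75% such values), Slc17a6 (66.7%) and Slc10a6 (60%), and the higher Slc46a2 probe (83.3%). The other 169 had a median mean of -0.02 and a median SD of 0.26, with 79 means above 0. The same split over all probes gave medians of 0.33 and 0.01. Of the 12 probes past the threshold, 2 were of the first kind, those of Slc16a9 and Slc66a2, both above 0. Without such probes 12 members passed, 7.1% beside 8.63% of all probes so treated, 4 above 0 and 8 under 0. Among the 12 were the remaining 10 and the second probes of Slc16a9 (PX-00618F04) and Slc38a4 (ZA-00028I11).

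**Figure D4:**
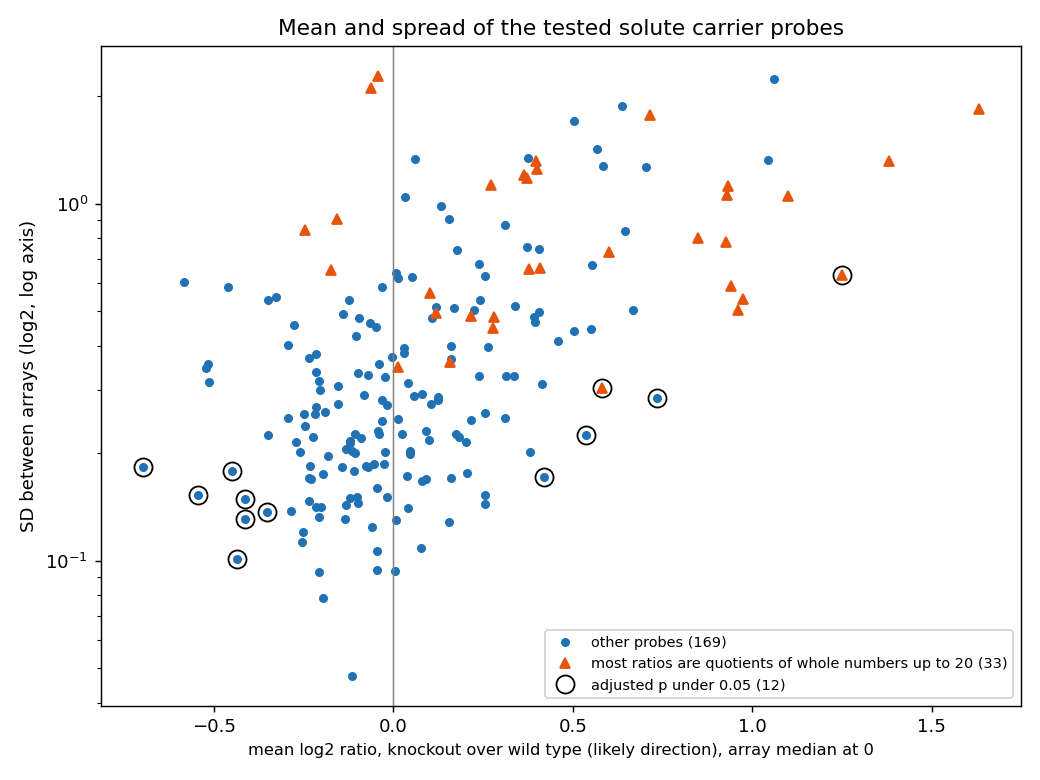
Mean log2 ratio (horizontal axis) against the SD between arrays (log axis) for the 202 tested solute carrier probes, with triangles for the 33 whose values are mostly quotients of whole numbers up to 20 and black rings around the 12 past an adjusted p of 0.05. The triangles sit high, at a median SD of 0.78, and 28 of them lie above 0, while the 7 ringed probes under 0 have SDs from 0.10 to 0.18. Rings mark a small limma p, which a small SD favours, so the SDs of ringed probes follow in part from that choice.

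Genes that work beside the carriers were counted from lists of the same kind. Of 22 probes for 18 ABC transporters, the ATP-driven pumps, 1 passed, that of Abca6 at -0.37 ± 0.15. Of 9 probes of carrier partners and ion pumps, only the Bsg probe above passed, and the sodium pump subunit Atp1b1 was at -0.34 ± 0.80 and 0.12 ± 0.12. None of 4 probes of the amino acid response passed, and the one with the smallest p was Nupr1, at -0.12 ± 0.19 (limma adjusted p 0.397). Of 15 probes for enzymes of glucose use, 3 of Tpi1 passed under 0, from -0.48 to -0.33, and 1 of Ldhb above 0, at 0.65 ± 0.16. Markers of mesenchyme, endothelium and leukocytes had 1 of 11, 0 of 5 and 2 of 4 probes past the threshold. The mesenchyme probe was of Sparc, at -0.31. The leukocyte probes lay on opposite sides of 0, C1qa at -0.40 and Cd53 at 0.71. At the Cd53 probe 80% of the values were quotients of small whole numbers.

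**Figure D5:**
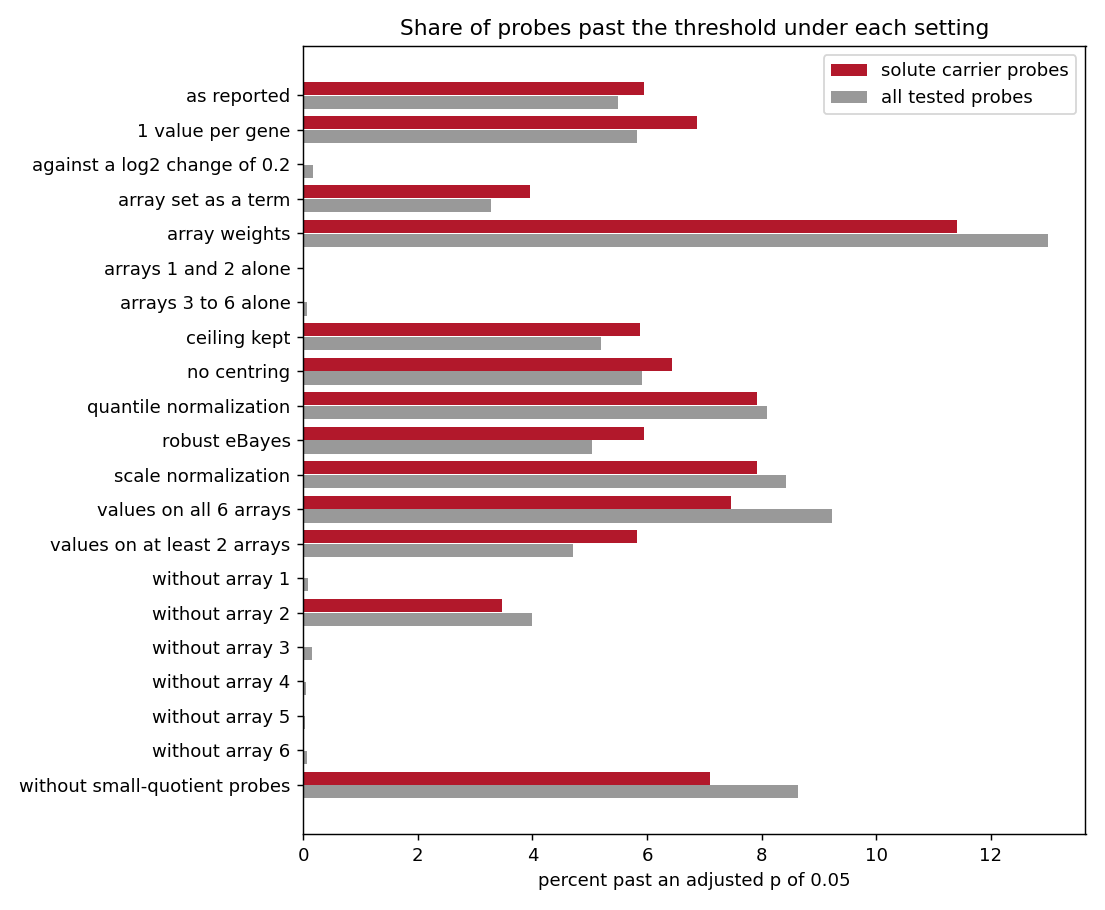
Percent of solute carrier probes (red bars) and of all tested probes (grey bars) past an adjusted p of 0.05, as reported and under each other setting; in the fit with 1 value per gene the bars count genes. The bars of each pair move together, from 5.94% and 5.49% as reported to 11.4% and 13% with array weights and to 0% of members when array 1, 3, 4, 5 or 6 is left out.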

How the data were processed

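Ratios of 6 arrays with 2 channels were used as the authors deposited them, on the log2 scale, which was inferred from the values. The authors' scanner settings, background correction and normalization: not given in the sources used here. The deposited array medians were -0.006 to 0.203 and were set to 0. The ceiling value of 16.61, at 40 to 257 probes per array, was treated as missing. Probes measured on 4 or more arrays were tested two-sided against 0 in 1 fit over all probes (limma 3.58.1, lmFit and eBayes, intercept only, R 4.3.3). The Benjamini-Hochberg adjustment ran over 21247 probes with a threshold of 0.05. Symbols came from the platform's probe table, and all 206 member probes matched a RefSeq gene (GRCm38.p6) by Entrez ID with the same symbol. Signal over background is unknown, and the number of arrays limits the precision. Data simulated for these 21247 probes had independent arrays, with log2 changes of 0.5, 1 and 2 at 67, 67 and 66 probes. The fit recovered 19.4%, 73.1% and 81.8% of these. The real arrays formed sets and 5.49% of all tested probes passed, so these shares do not give the sensitivity on the real data.

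Named were every member past the threshold, the 6 lowest and 6 highest means, a list of well-known carriers, and the other probes of these genes. Of that list of 16 carriers, 6 had a tested probe. Other genes named in the text (Slc37a4, Slc31a1, Slc13a1, Slc10a6, Slc25a39, Atp1b1, Ftl1, Alb, Ptf1a and Ctrb1) were chosen after their values were seen. Members and lists were chosen with earlier results of these data known. Symbols were sorted into substrate groups by a hand-written list of families and single members, which puts Slc46 with iron and heme and Slc13a1 with dicarboxylates; Slc5a4b matched no entry and stands with unknown substrates. Alternatives were 1 value per gene, a minimum log2 change of 0.2 (treat), no centring, scale and quantile normalization, other filters on values, weighted arrays, eBayes with its robust option, the array set, and each array left out. Figures were drawn with matplotlib 3.10.9.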

Additional observations from a re-analysis of the deposited data

Results flagged for a closer look

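Among the 33 named probes and 13 medians of members or substrate groups, 4 probes and 2 medians had 1 array far from the others by Dixon's test. Chance alone picks about 1 in 20 groups. That rate holds only for groups named without regard to these values. Some of the 33 probes were named by a large or small mean or by passing the threshold, so it does not hold for those. Slc35f6 was named only by its large mean, which array 6 raised. For Slc35f6, array 6 was at 5.501 and the other arrays lay between -0.71 and 0.72. For Slc25a37, array 5 was at 3.387 at probe PX-00633L18 (others 0.22 to 0.75) and array 3 was at 1.446 at probe PX-00620J19 (others -0.30 to 0.30). For Slc25a5, array 2 was at 0.6365 at probe ZA-00024C14 (others -0.20 to 0.07). The median of all solute carrier probes was -0.051 on array 5 and between -0.012 and 0.003 on the others. The median of the carriers of other or unknown substrate was -0.5095 on array 2 and between -0.10 and 0.10 on the others. None of these probes passed the threshold, and the causes were not tested.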

How the results depend on the processing

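All 12 member calls kept their sign in every fit that gave them a value. They had the same sign on every measured array, so fits on a part of the arrays could not change it. The count of members past the threshold, 12 (5 above 0, 7 under 0), became 0 (0 and 0) against a minimum log2 change of 0.2. It was likewise 0 with arrays 1 and 2 alone and with arrays 3 to 6 alone. In the fits on these array sets alone, 32 and 52 members had an unadjusted limma p under 0.05. That is 16.1% and 26.7% of the members, beside 14.4% and 30.7% of all probes. With array weights the count past the threshold became 23 (9 and 14). Without centring it split into 8 above and 5 under 0, and with the array set as a term 4 were under 0. Leaving out each array gave 0 to 7 members, 0 to 1 above 0 and 0 to 6 under 0, and 8 to 849 of all probes. The count over all probes, 1166, was 630 with 1 value per gene, 37 against the minimum change, 695 with the set term, 2752 with weights, 0 and 13 in the array sets alone and 1789 after scaling. The median of member means was 0.116875 without centring, -0.0100833 with values on all 6 arrays, -0.02475 without mostly-quotient probes, and -0.0141375 to 0.0295 leaving out each array. Some probes that were not called changed sign. With arrays 1 and 2 alone, Slc25a5 ZX-00140H20 was at 0.01725, Slc25a5 ZX-00140H22 at 0.11175, Slc38a2 ZX-00118O10 at 0.04925, Slc38a2 PX-00624N18 at -0.09725, Slc4a1 at -0.05925, Slc25a37 PX-00620J19 at -0.25225 and Slc35f6 at -0.36325. With arrays 3 to 6 alone, Slc25a37 ZX-00121C12 was at -0.10275, Slc25a5 ZA-00024C14 at -0.05775 and Slc25a5 ZA-00027L13 at -0.00475. Slc25a37 ZX-00121C12 was at -0.0512125 with weights, -0.0156327 after quantile normalization, -0.0135501 after scaling and, leaving out each array, at -0.0684 to 0.1195. Slc25a5 ZA-00024C14 was at -0.000850209 with weights and -0.033 to 0.1345 leaving out each array. Slc4a1 was at -0.01075 with the set term and at -0.0275 to 0.0263 leaving out each array. Slc40a1 was at 0.0625 without centring and at -0.0887 to 0.0218 leaving out each array, Slc25a5 ZX-00140H22 at 0.0126667 without centring, and Slc38a2 PX-00624N18 at -0.1729 to 0.3635 leaving out each array. Fewer arrays give fewer degrees of freedom, and other causes were not tested. Each array holds both RNAs and the ratios form 1 group, so the test of the ratios against 0 is already paired by array. Signal over background is unknown, which limits what a ratio of dim spots can show.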
